A study of Homo sapiens with 8 samples.

Results

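The 10 genes described here are TFF1, TFF3, GREB1, PDZK1, MYB, CA12, RET, SIAH2, NRIP1 and AGR2, a list of well known targets of the estrogen receptor. They were found by their gene symbol in the platform's probe table, which gave 1 probe set for each gene, 10 of the 21214 probe sets that carry a gene name and of the 33297 in all. Of these, 8 carry 1 gene name. The PDZK1 probe set also names the pseudogene PDZK1P1, a near-identical copy, and the RET probe set also names KIF5B, so their values cannot be given to 1 gene alone.

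The cells were T47D, an established line of estrogen receptor positive breast carcinoma. Lentivirus had brought in either an inducible hairpin RNA (shRNA) against EglN2, an enzyme that hydroxylates prolines in the hypoxia-inducible factors, or a control hairpin named Scr. Each line was measured on 2 arrays at day 0, without doxycycline, and on 2 arrays at day 2, after 48 h of doxycycline at 1 ug/ml, 8 arrays in all. The groups are thus Scr day 0, Scr day 2, EglN2 shRNA day 0 and EglN2 shRNA day 2. All of them carry lentivirus and a hairpin. Every day 2 array had doxycycline and no day 0 array did. Doxycycline and 48 h more of culture therefore cannot be told apart in any difference between the days. Whether a line is 1 clone or a pool, which hairpin sequence it carries, and how much estrogen the medium held are not stated in the labels, and no group is labelled as treated with estrogen or an antagonist. Nothing in the labels says that the replicates were separate cultures, so the p-values below speak of array-to-array spread, part or all of which may be technical.

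The estrogen receptor alpha, the product of ESR1, is a transcription factor that is switched on by estradiol, binds DNA at estrogen response elements, often together with FOXA1 and GATA3, and calls in coactivators. Its targets include secreted proteins of mucous epithelia (TFF1, TFF3), cofactors that act back on the receptor (GREB1, NRIP1), and genes of growth and transport (MYB, RET, CA12, PDZK1). In luminal breast cancer cells several of them are used as readouts of receptor activity.

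The levels below are RMA log2 values, where a difference of 1 is a doubling. Array medians over the named probe sets lay between 7.81 and 7.86, and replicate arrays correlated at 0.992 to 0.996. Luminal markers were bright, with a median of 11.96 over 14 probe sets of 11 genes. Of these 14, 1 lay below the median of all tested probe sets, an ESR1 probe set at a mean of 5.78. All 5 leukocyte and all 5 endothelial probe sets, and 5 of 6 of the fibroblast ones, lay below that median. Of 4 basal probe sets 2 lay below that median (KRT5 at a mean of 6.82 and MYLK at 6.71), KRT14 was at 8.15 and ACTA2 was bright at 12.30. EGLN2, on a probe set shared with the read-through RAB4B-EGLN2, read 8.26 and 8.29 in the EglN2 shRNA line at day 2 and between 8.81 and 9.04 on the other 6 arrays. Between the days that line differed by -0.67 (SE 0.11, limma adjusted p = 0.134).

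RefSeq promoter windows (GRCh38.p14) were at hand for 7 of the 10 genes, 11 windows in all, each from 250 bases before to 50 after a transcription start. They were searched on both strands for the full estrogen response element, an inverted repeat of GGTCA with 3 bases between its arms, and for AGGTCA, the core motif of nuclear receptor sites, whose reverse is TGACCT and which can overlap the full element. None of the 11 windows held the full element, which 0.057% of all 35116 windows of this length hold. The core motif was in 2 of the 11, both of PDZK1, against 13.8% of all windows. The PDZK1 windows overlap and hold the same match, at -69 from the more upstream start and -101 from the other. The 250 bases before that upstream PDZK1 start and before the AGR2 start are shown because these 2 genes had the lower values of the EglN2 shRNA line at day 2. Capitals mark AGGTCA, and a match or its lack in so short a window says only which letters stand there.
PDZK1, chr1:145707401-145707650, minus strand: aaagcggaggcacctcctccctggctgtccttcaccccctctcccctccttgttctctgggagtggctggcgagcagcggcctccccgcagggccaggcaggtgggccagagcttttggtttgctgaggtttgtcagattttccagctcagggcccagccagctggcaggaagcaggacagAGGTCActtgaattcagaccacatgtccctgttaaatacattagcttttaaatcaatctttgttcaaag
AGR2, chr7:16805000-16805249, minus strand: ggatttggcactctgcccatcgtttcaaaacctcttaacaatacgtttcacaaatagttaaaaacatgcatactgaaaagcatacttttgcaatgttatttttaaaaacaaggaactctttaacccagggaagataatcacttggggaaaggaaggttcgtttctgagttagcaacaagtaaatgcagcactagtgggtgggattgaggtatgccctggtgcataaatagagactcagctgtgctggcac

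Among the 10 genes, these patterns stood out in the levels. TFF1 was lower at day 2 in both lines. PDZK1 was higher in the Scr line at day 2 and low at both days in the EglN2 shRNA line. In the EglN2 shRNA line at day 2, AGR2 was lowest and CA12 was highest. None of the 10 passed the limma test over all 21214 probe sets (adjusted p under 0.05) in any of the 7 comparisons, so the values that follow are differences that did not pass. In bulk RNA, fewer cells expressing a gene and less RNA per cell cannot be told apart.

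**Figure D1:**
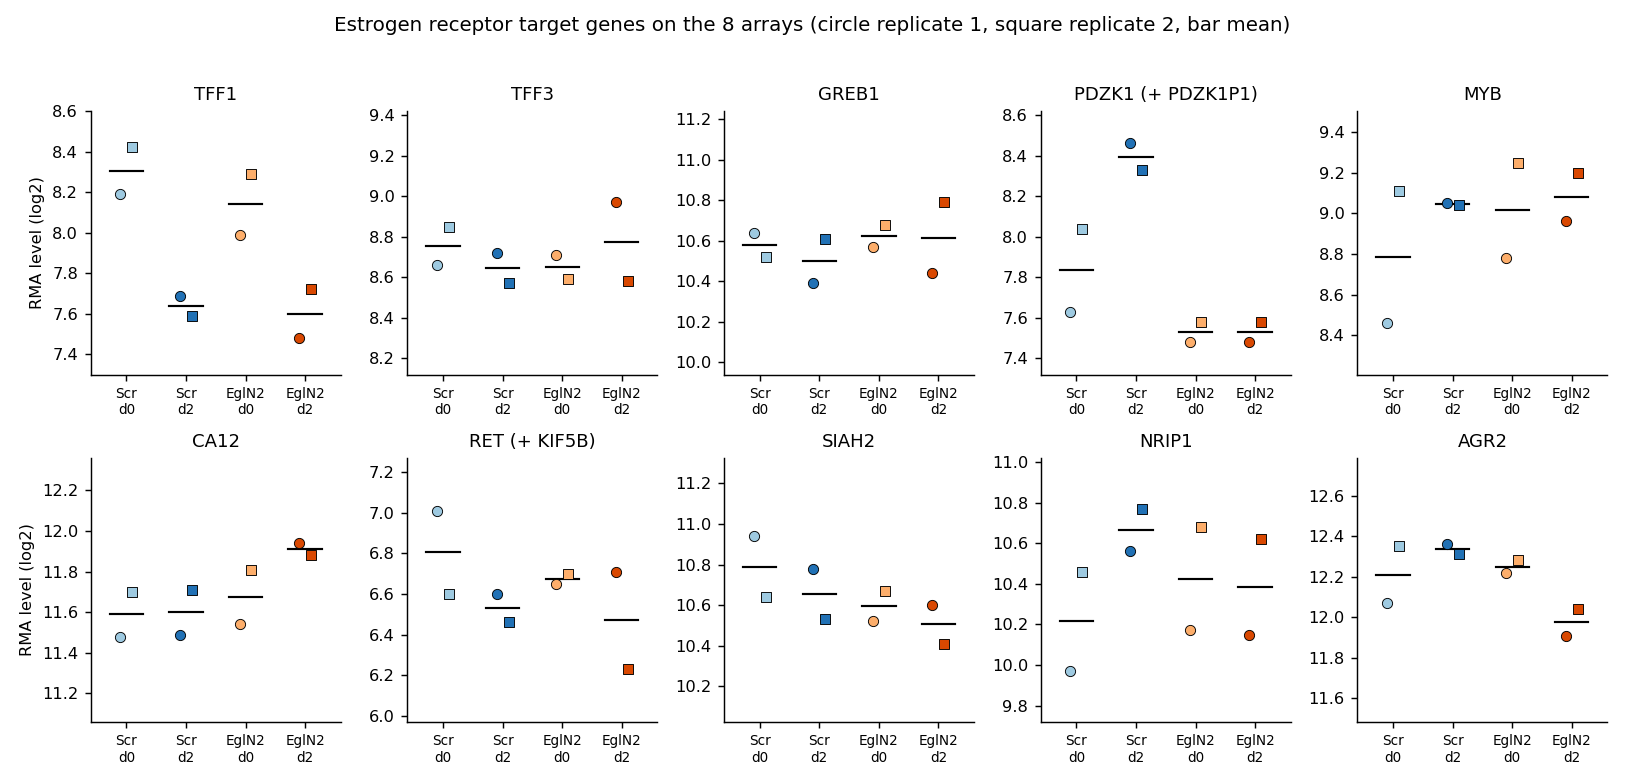
RMA level (log2) of the 10 genes on the 8 arrays, by line and day (d0, day 0; d2, day 2). Circles are replicate 1, squares replicate 2 and bars the mean of the 2 arrays; every panel spans the same height in log2 units around its own middle. All 4 TFF1 values at day 2 (7.48 to 7.72) lie under all 4 at day 0 (7.99 to 8.42), and both PDZK1 values of the Scr line at day 2 (8.33 and 8.46) lie above the other 6.

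Secreted proteins come first. TFF1, the trefoil peptide once called pS2 and a classical marker of estrogen response, read 8.19 and 8.42 in the Scr line at day 0 and 7.69 and 7.59 at day 2. The EglN2 shRNA arrays were at 7.99 and 8.29 on day 0 and at 7.48 and 7.72 on day 2. The day 2 arrays were the 4 lowest, with a gap between the days in each line and across both. The group means in the order Scr day 0, EglN2 shRNA day 0, Scr day 2 and EglN2 shRNA day 2 were 8.31, 8.14, 7.64 and 7.60 (SD 0.16, 0.21, 0.07 and 0.17, n = 2 each). The lines did not differ beyond their spread at either day.

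TFF3, the trefoil peptide made by goblet cells and many luminal tumours, showed no such step. It read 8.66 and 8.85 in the Scr line at day 0, 8.72 and 8.57 there at day 2, 8.71 and 8.59 in the EglN2 shRNA line at day 0, and 8.97 and 8.58 there at day 2. All groups overlapped, and the widest gap between replicates, 0.39 on the last pair, was larger than the range of the group means, 0.13.

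AGR2, a disulfide isomerase of the endoplasmic reticulum that is also secreted, read 12.07 and 12.35 in the Scr line at day 0 and 12.36 and 12.31 at day 2. The EglN2 shRNA arrays were at 12.22 and 12.28 on day 0 and at 11.91 and 12.04 on day 2. The last pair was the lowest of the 8 arrays. The other 6 arrays lay between 12.07 and 12.36 with no order by line or day.

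The next 4 genes regulate transcription or protein turnover. GREB1, a chromatin-bound cofactor of the receptor, read 10.64 and 10.52 in the Scr line at day 0 and 10.39 and 10.61 at day 2, and 10.57 and 10.68 in the EglN2 shRNA line at day 0 and 10.44 and 10.79 at day 2. Its group means spanned 0.13 and its replicates overlapped in every comparison. NRIP1, also known as RIP140, a corepressor that binds the liganded receptor, read 9.97 and 10.46 in the Scr line at day 0 and 10.56 and 10.77 at day 2. The EglN2 shRNA arrays were at 10.17 and 10.68 on day 0 and at 10.15 and 10.62 on day 2. Replicate 2 was higher than replicate 1 in all 4 groups, by 0.21 to 0.51, a pattern that 9.61% of all tested probe sets shared. Replicate 1 was the higher one in all 4 groups for 10.6% of them. Of the 4 basal probe sets, ACTA2 split by replicate number, at 12.72 to 13.33 on replicate 1 arrays and 10.80 to 12.43 on replicate 2 arrays, while KRT5, KRT14 and MYLK overlapped. The part of that split in the NRIP1 values was not tested.

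MYB, a transcription factor of proliferating progenitor cells that many luminal tumours express, read 8.46 and 9.11 in the Scr line at day 0 and 9.05 and 9.04 at day 2. The EglN2 shRNA arrays were at 8.78 and 9.25 on day 0 and at 8.96 and 9.20 on day 2. The lowest array, Scr day 0 replicate 1, set the low mean of its group (8.79, SD 0.46, n = 2). SIAH2, a ubiquitin ligase that also targets the prolyl hydroxylases of the EglN family for degradation, read 10.94 and 10.64 in the Scr line at day 0 and 10.78 and 10.53 at day 2, and 10.52 and 10.67 in the EglN2 shRNA line at day 0 and 10.60 and 10.41 at day 2. Its groups overlapped throughout.

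The remaining genes act at the cell membrane. RET, the receptor tyrosine kinase for ligands of the GDNF family, read 7.01 and 6.60 in the Scr line at day 0, 6.60 and 6.46 there at day 2, 6.65 and 6.70 in the EglN2 shRNA line at day 0, and 6.71 and 6.23 there at day 2, on the probe set shared with KIF5B. CA12, a carbonic anhydrase that faces the outside of the cell, read 11.48 and 11.70 in the Scr line at day 0 and 11.49 and 11.71 at day 2. It read 11.54 and 11.81 in the EglN2 shRNA line at day 0 and 11.94 and 11.88 at day 2. That last pair was the highest of the 8 arrays.

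PDZK1, a scaffold protein that anchors transporters under the membrane, had the widest range of the 10 genes. The Scr arrays were at 7.63 and 8.04 on day 0 and at 8.46 and 8.33 on day 2. The EglN2 shRNA arrays were at 7.48 and 7.58 on day 0 and again on day 2. All 4 arrays of the EglN2 shRNA line were below all 4 of the Scr line, and the Scr arrays of day 2 were above those of day 0.

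**Figure D2:**
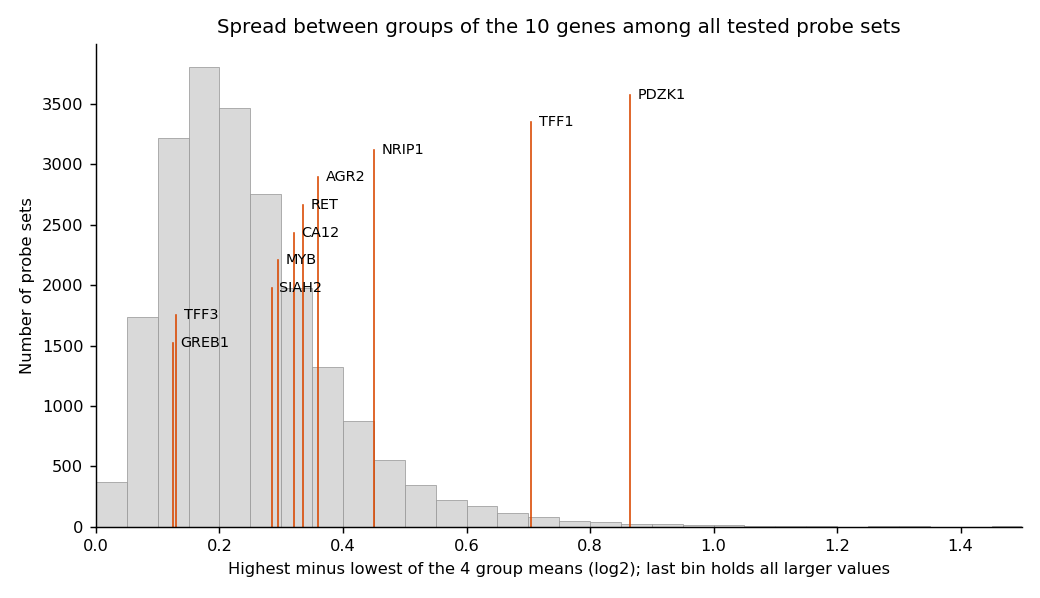
Number of tested probe sets (grey bars) by the highest minus the lowest of their 4 group means (log2), with the 10 genes as orange lines whose height has no meaning. PDZK1 (0.87) and TFF1 (0.71) lie in the right tail, and GREB1 and TFF3 (0.13 each) left of the median of all tested probe sets, 0.225.

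The range of the 4 group means set the genes apart from one another. It was 0.87 for PDZK1, larger than or equal to that of 99.5% of all tested probe sets, 0.71 for TFF1 (98.8%) and 0.45 for NRIP1 (91.9%). For AGR2, RET, CA12, MYB and SIAH2 it ran from 0.36 to 0.29. The ranges of GREB1 and TFF3, 0.13 each, were larger than or equal to those of only 16.7% and 18.2% of probe sets. These shares describe where the genes lie and are no test.

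The change over 48 h of doxycycline was then compared in each line. In the Scr line TFF1 was 1.59-fold lower at day 2, a difference of -0.67 (SE 0.14, 95% confidence interval -0.98 to -0.35, adjusted p = 0.225). PDZK1 was at 0.56 (SE 0.14, interval 0.25 to 0.87, adjusted p = 0.258), 1.47-fold higher, and NRIP1 at 0.45 (SE 0.22, interval -0.05 to 0.95, adjusted p = 0.422). Limma called 0 of the 10 genes and 0% of all probe sets. An unadjusted p under 0.05 was seen for 2 of the 10, TFF1 and PDZK1, against 12.9% of all. The groups did not overlap for PDZK1 and NRIP1, higher at day 2 (23% of all probe sets), and for TFF1, lower (24.8% of all), so these counts are near the background. The other 7 genes lay between -0.28 (RET) and 0.26 (MYB), and the median over the 10 was -0.04, beside -0.01 over all tested probe sets.

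In the EglN2 shRNA line TFF1 was at -0.54 (SE 0.14, interval -0.86 to -0.22, adjusted p = 0.458), 1.45-fold lower. AGR2 was at -0.28 (SE 0.12, interval -0.54 to -0.01, adjusted p = 0.848) and CA12 at 0.23 (SE 0.13, interval -0.07 to 0.54, adjusted p = 0.933). PDZK1 was at 0.00 (interval -0.31 to 0.31). Limma called 0 of the 10, beside 0.00943% of all probe sets. TFF1 and AGR2 had an unadjusted p under 0.05 (5.77% of all), and the groups did not overlap for these 2, lower (15.5% of all), and for CA12, higher (15.2% of all). The other 6 genes lay between -0.21 (RET) and 0.13 (TFF3), and the median over the 10 was -0.03, beside 0.01 over all.

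**Figure D3:**
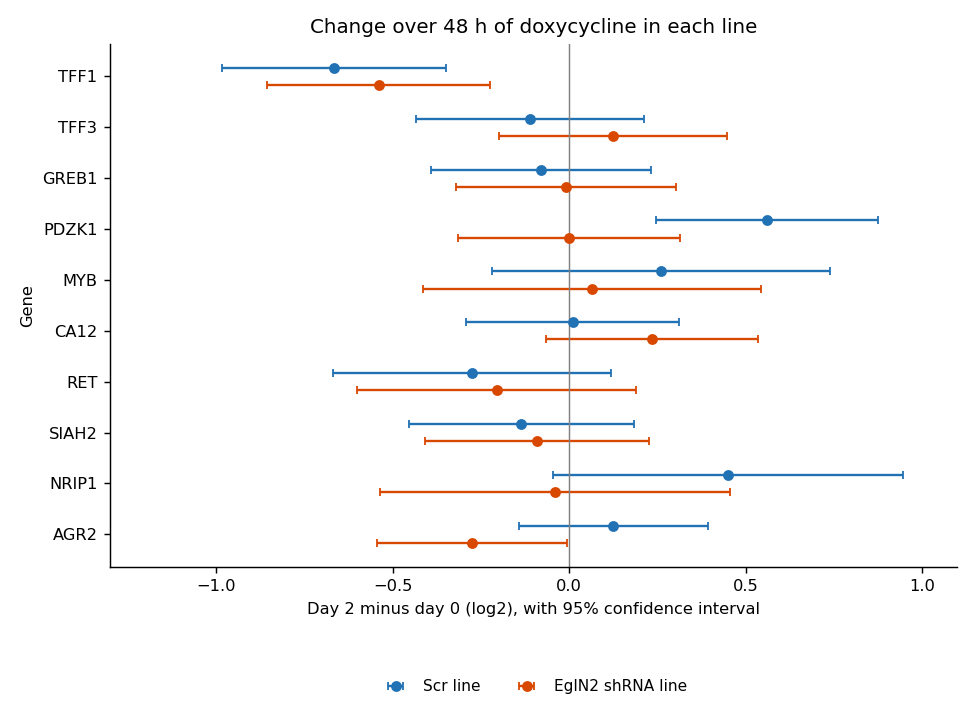
Change of each gene from day 0 to day 2 (log2) in the Scr line (blue) and the EglN2 shRNA line (orange); points are limma estimates from 2 arrays against 2 and bars their 95% confidence intervals. TFF1 lies left of 0 with both intervals (-0.98 to -0.35 and -0.86 to -0.22), and PDZK1 lies right of 0 in the Scr line alone (0.25 to 0.87 against -0.31 to 0.31).

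Taken over both lines, the mean change of TFF1 was -0.60 (SE 0.10, interval -0.83 to -0.38), 1.52-fold lower at day 2, and all 4 day 2 arrays were below all 4 day 0 arrays. Its adjusted p was 0.0666, and TFF1 had rank 49 by p among all probe sets. It passed when the prior variance was allowed to follow the level (adjusted p = 0.0454). It also passed when the replicate number entered the fit as a block (adjusted p = 0.0204), a pairing that the labels do not state. The 6 alternatives that kept all arrays gave adjusted p values from 0.0204 to 0.317, and leaving out 1 array at a time gave changes from -0.68 to -0.53 and adjusted p values from 0.0907 to 0.322. PDZK1 had a mean change of 0.28 (SE 0.10, adjusted p = 0.385), the average of estimates of 0.56 in the Scr line and 0.00 in the EglN2 shRNA line. The other 8 genes had mean changes between -0.24 (RET) and 0.21 (NRIP1), with adjusted p values of 0.528 or higher. Limma called 0 of the 10 and 0.141% of all probe sets. An unadjusted p under 0.05 was seen for TFF1 and PDZK1 (10.7% of all). Days did not overlap for TFF1, lower (2.11% of all), and for 0 of the 10 in the other direction (2.98% of all).

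Whether the lines changed differently was tested as the difference of their changes, EglN2 shRNA minus Scr. For TFF1 it was 0.13 (SE 0.20, interval -0.32 to 0.57, adjusted p = 0.888). That interval takes in no difference as well as a fall that is weaker or stronger in the EglN2 shRNA line. The difference of changes was -0.56 for PDZK1 (SE 0.20, interval -1.01 to -0.11, adjusted p = 0.676) and -0.40 for AGR2 (SE 0.17, interval -0.78 to -0.02, adjusted p = 0.694). Limma called 0 of the 10 genes and 0% of all probe sets. These 2 had an unadjusted p under 0.05 (7.12% of all). They were also the 2 whose changes, taken as each day 2 array minus each day 0 array, did not overlap between the lines, lower in the EglN2 shRNA line (10.4% of all), with 0 of the 10 in the other direction (10.1% of all). NRIP1 gave -0.49 (SE 0.31, interval -1.19 to 0.21), and the other 6 genes lay between -0.20 (MYB) and 0.23 (TFF3), each with an interval that holds 0.

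Genes of dividing cells also differed in sign between the lines. All 10 genes of a list of proliferation markers, among them MKI67, TOP2A and CCNB1, had a positive difference between the days in the Scr line (median 0.21) and a negative one in the EglN2 shRNA line (median -0.13). Between the lines all 10 were positive in EglN2 shRNA relative to Scr at day 0 (median 0.15), the opposite sign to PDZK1, and all 10 negative at day 2 (median -0.18). Limma called 0 of the 10 in any comparison. The mean level of this list ran from 10.56 to 10.90 over the arrays, lowest on Scr day 0 replicate 1, which was also the lowest array for MYB and for NRIP1. The part of this shift in the PDZK1, NRIP1 and MYB values was not tested.

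At day 0 the lines carrying the different hairpins were compared before any doxycycline. PDZK1 was at -0.31 in the EglN2 shRNA line relative to Scr (SE 0.14, interval -0.62 to 0.01, adjusted p = 0.485). It was the only gene of the 10 whose groups did not overlap, lower (22.9% of all probe sets), with 0 of the 10 higher (22.2% of all). An unadjusted p under 0.05 was seen for 0 of the 10, beside 10.4% of all, and limma called 0 of the 10 and 0% of all. The other 9 genes lay between -0.20 (SIAH2) and 0.23 (MYB), and TFF1 was at -0.17 (SE 0.14, interval -0.48 to 0.15).

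After 48 h of doxycycline the difference for PDZK1 was -0.87 (SE 0.14, interval -1.18 to -0.55), 1.82-fold lower in the EglN2 shRNA line, with an adjusted p of 0.0954 and rank 29 by p among all probe sets. The 6 alternatives that kept all arrays gave adjusted p values from 0.0497 to 0.419, so it passed under 1 of them. Leaving out 1 array at a time kept it between -0.93 and -0.80, with adjusted p values from 0.0789 to 0.814. AGR2 was at -0.36 (SE 0.12, interval -0.63 to -0.09, adjusted p = 0.714), 1.28-fold lower. CA12 was at 0.31 (SE 0.13, interval 0.01 to 0.61, adjusted p = 0.954), 1.24-fold higher. These 3 had an unadjusted p under 0.05 (5.19% of all probe sets), and limma called 0 of the 10 and 0.0754% of all. They were also the genes whose groups did not overlap: PDZK1 and AGR2 lower (14.8% of all) and CA12 higher (15.6% of all). TFF1 was at -0.04 (interval -0.36 to 0.28), and the other 6 genes lay between -0.28 (NRIP1) and 0.13 (TFF3).

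**Figure D4:**
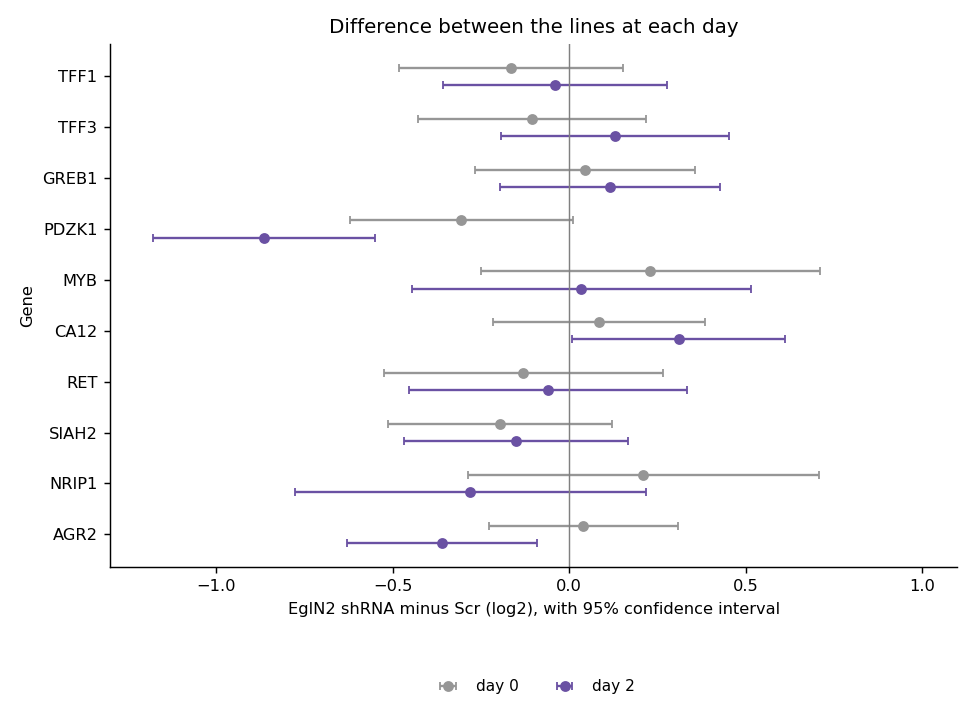
Difference between the lines, EglN2 shRNA minus Scr (log2), at day 0 (grey) and day 2 (purple) for each gene, as limma estimates from 2 arrays against 2 with 95% confidence intervals. At day 2 the intervals of PDZK1 (-1.18 to -0.55) and AGR2 (-0.63 to -0.09) lie left of 0 and that of CA12 (0.01 to 0.61) right of it, while at day 0 all 10 intervals hold 0.

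Averaged over both days, PDZK1 was at -0.59 in the EglN2 shRNA line (SE 0.10, interval -0.81 to -0.36, adjusted p = 0.140), with rank 27 by p. It was the only one of the 10 with an unadjusted p under 0.05 (8.07% of all). All 4 of its arrays were below the 4 Scr arrays (1.47% of all probe sets), with 0 of the 10 above (2.04% of all). CA12 was at 0.20 (SE 0.09, interval -0.02 to 0.41), SIAH2 at -0.17 (SE 0.10, interval -0.40 to 0.05) and AGR2 at -0.16 (SE 0.08, interval -0.35 to 0.03). Limma called 0 of the 10 and 0.033% of all.

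How alike the 10 genes were over the 8 arrays was described by Pearson's r, with no test, since the arrays share lines, days and replicate numbers. The closest pairs were MYB with NRIP1 (r = 0.85) and RET with SIAH2 (r = 0.84), then PDZK1 with AGR2 (r = 0.71). MYB and RET (r = -0.72), TFF3 and GREB1 (r = -0.72) and RET and NRIP1 (r = -0.72) ran in opposite directions. Replicate 2 was the higher one in 3 of 4 groups for MYB and in 4 of 4 for NRIP1. The array Scr day 0 replicate 1 was the lowest of the 8 for MYB (8.46) and NRIP1 (9.97). It was the highest for RET (7.01) and SIAH2 (10.94). The part of the replicate order, or of this 1 array, in these r values was not tested.

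PDZK1, the gene with the widest range, was set against the 19460 single-gene probe sets. NREP was the most like it (r = 0.97), followed by CCDC85A (r = 0.95), TIAL1, FKBP6 and WWOX (r = 0.93 each). NREP, which encodes a small neuronal protein, read 7.70 and 8.02 in the Scr line at day 0 and 8.32 and 8.35 at day 2, and 7.62 to 7.80 in the EglN2 shRNA line. It shared the high pair of Scr day 2 arrays with PDZK1. With 8 arrays, 16 probe sets had an r over 0.9.

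**Figure D5:**
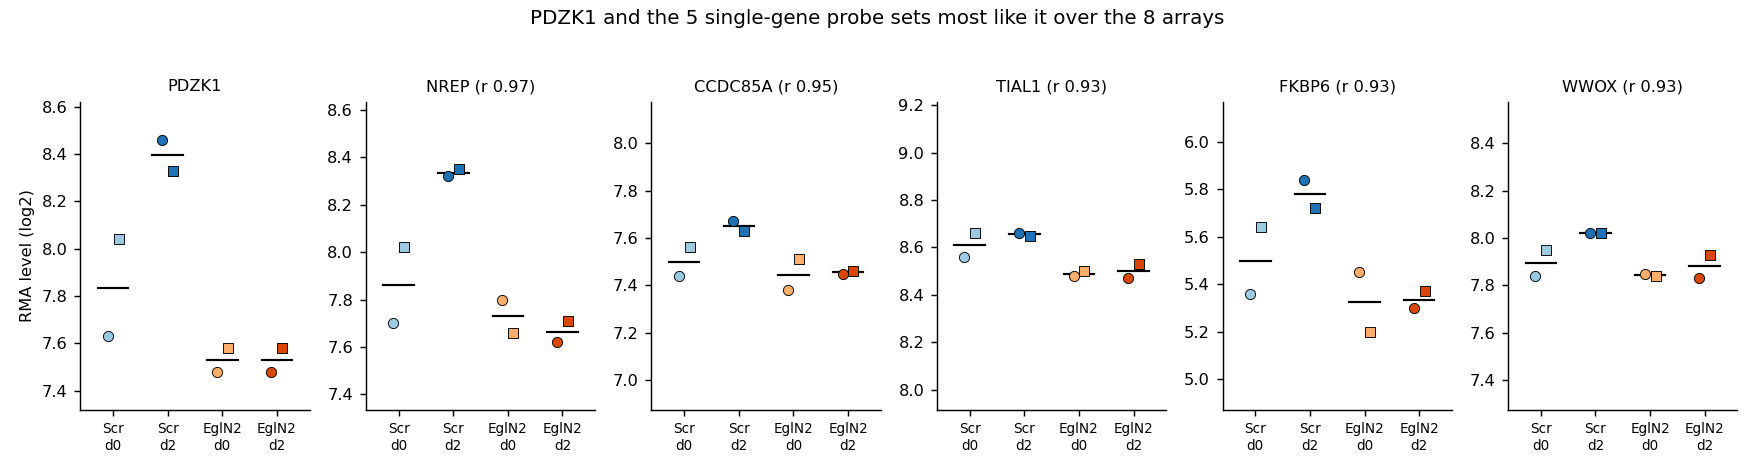
RMA level (log2) of PDZK1 and of the 5 single-gene probe sets most like it over the 8 arrays, with Pearson's r to PDZK1 in the titles of these 5; circles are replicate 1, squares replicate 2, bars the mean of 2 arrays, and every panel spans the same height. NREP repeats the high Scr day 2 pair (8.32 and 8.35), while CCDC85A, TIAL1 and WWOX span 0.29 or less over the arrays.

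Receptor genes gave the setting of these values. ESR1 has 2 probe sets, of which 1 (8122840) was dim at 5.69 to 5.88. The other (8122843) read 10.02 and 9.82 in the Scr line at day 0, 9.86 and 9.72 there at day 2, 9.76 and 9.84 in the EglN2 shRNA line at day 0 and 9.50 and 9.57 there at day 2, the lowest pair. From day 0 to day 2 it was at -0.27 in the EglN2 shRNA line (SE 0.11, adjusted p = 0.835) and at -0.13 in the Scr line (SE 0.11, adjusted p = 0.625). PGR, itself a receptor target, ran from 11.65 to 12.11, FOXA1 from 10.87 to 11.10 and GATA3 from 12.05 to 12.43. Of the 5 probe sets of these 4 genes 0 were called in any comparison, and the smallest limma adjusted p was 0.432. At day 2 all 5 were lower in the EglN2 shRNA line than in Scr (median -0.135). The groups did not overlap for 3 of them (14.8% of all, lower), and 1 had an unadjusted p under 0.05 (5.19% of all).

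A list of further receptor targets, 44 measured genes on 45 probe sets, also went both ways. In the Scr line 28 probe sets had a positive and 17 a negative change (median 0.08), and in the EglN2 shRNA line 20 and 25 (median -0.03), with 0 called in either line. At day 2 between the lines 20 were positive and 25 negative (median -0.04), and 0 were called. Over both lines, from day 0 to day 2, 27 were positive and 18 negative (median 0.02). Limma called 2 of them higher and 0 lower, beside 0.141% of all probe sets. SERPINA1, the protease inhibitor alpha-1 antitrypsin, rose by 0.74 (SE 0.08, adjusted p = 0.0248), from 8.84 and 9.04 to 9.67 and 9.61 in the Scr line and from 9.28 and 9.14 to 10.07 and 9.89 in the EglN2 shRNA line. STC2, a secreted glycoprotein that also belongs to the amino acid stress response, rose by 0.60 (SE 0.09, adjusted p = 0.0392). Both genes thus went the opposite way to TFF1. Days did not overlap for 6 probe sets of the list, lower as for TFF1 (2.11% of all). They did not overlap for 4, higher (2.98% of all). The SERPINA1 call was lost without any single Scr array or EglN2 shRNA day 0 array (adjusted p from 0.0692 to 0.157), and the STC2 call without any single array (0.0640 to 0.229).

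RAB31, a small GTPase of vesicle transport, was the third of this list by p. It read 7.53 and 7.33 in the Scr line at day 0 and 7.86 to 7.99 on the other 6 arrays, a change of 0.53 in that line (SE 0.11, adjusted p = 0.208).

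Among receptor cofactors, 16 of 20 listed genes were measured and 0 were called in any comparison. In the Scr line 12 of 16 had a negative change (median -0.10) and in the EglN2 shRNA line 8 of 16 (median 0.01). TFAP2C, a factor that helps the receptor bind in luminal cells, had the smallest p, with a mean change over both lines of -0.30 (SE 0.07, adjusted p = 0.198) and the 4 day 2 arrays (10.68 to 10.81) below the 4 day 0 arrays (10.99 to 11.18). TFAP2C thus shared the order of days with TFF1, an order found in 2.11% of all probe sets. A link between the 2 genes was not tested. GPER1, a membrane receptor that binds estrogen, was at -0.45 between the lines at day 0 (SE 0.13, adjusted p = 0.455), and PELP1, a coactivator, was at -0.35 between the days of the Scr line (SE 0.11, adjusted p = 0.289).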

How the data were processed

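RNA of 8 samples was labelled with biotin and measured on Affymetrix arrays. The authors deposited 1 log2 value for each probe set and array. The submitters' processing notes name RMA and Affymetrix Expression Console, without a version or genome build. RMA removes background, makes the arrays' distributions alike and summarises the probes of a set, and such summaries tend to compress differences of dim genes. The values were used as deposited.

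Groups and replicate numbers came from the sample titles. Probe sets were named by the platform's table (19460 with 1 gene, 1754 with several, 12083 with none), and 19429 of the single names were matched to the RefSeq table of genes and updated. Group means of all 8 arrays were fitted over the 21214 named probe sets with limma 3.58.1 in R 4.3.3 (lmFit, eBayes, 4 residual and 5.53 prior degrees of freedom), two-sided, with Benjamini-Hochberg adjustment over all of them and a threshold of 0.05. The fit was tested on simulated data. Precision is limited by the number of arrays, with a median standard error of 0.12 for 2 groups. No exact permutation test was run. In comparisons of 2 arrays against 2 such a test allows no p below 0.333, a limit that does not hold for the means over both lines or both days. Alternatives were a replicate block, median centring, quantile normalization, a prior variance that follows the level, a filter on the lowest 25% of probe sets, all probe sets of the table, only the arrays of 1 line, and leaving out each array.

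The genes described and the gene lists were chosen with earlier results of these data known. The lists were written from general knowledge. Named were the 10 genes, EGLN2, 4 receptor genes, up to 3 members with the smallest p of the lists of further targets and of cofactors, and the 5 probe sets most like the gene with the widest range of group means.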

Additional observations from a re-analysis of the deposited data

How the results depend on the processing

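No gene of the 10 was called in the fit as reported, and 2 values crossed the threshold under an alternative. With a replicate block the adjusted p of TFF1 over both lines was 0.0204 and that of PDZK1 between the lines at day 2 was 0.0497, and the first also passed with the prior variance following the level (0.0454). The labels do not say that equal replicate numbers pair the samples. Deviations of equal numbers correlated positively between all pairs of groups, at 0.0981 to 0.271, a shared part that the fit as reported leaves out. With the block the probe sets called were 13 in the EglN2 shRNA line (2 as reported), 42 in the Scr line (0), 32 at day 2 between the lines (16), 150 over both lines (30) and 18 between the lines over both days (7). With the prior variance following the level they were 6 in the Scr line, 2 in the difference of changes (0), 26 at day 2, 76 over both lines and 14 between the lines. The low filter gave 48 over both lines and 12 between the lines, where quantile normalization gave 13. All probe sets of the table gave 0 in every comparison, and so did the EglN2 shRNA line's own 4 arrays. Leaving out 1 array gave 0 to 2 in the EglN2 shRNA line, 0 to 15 at day 2 between the lines, 0 to 20 over both lines and 0 to 6 between the lines over both days. STC2 was not called over both lines after quantile normalization (adjusted p = 0.0617), nor SERPINA1 (0.171) or STC2 (0.239) with all probe sets.

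Small differences of single genes changed sign. Median centring gave SIAH2 -0.02 in the difference of changes and NRIP1 0.0025 in the mean line difference. Quantile normalization gave GREB1 0.0116 and CA12 -0.0394 in the changes of the EglN2 shRNA and Scr lines, RET -0.0163 in the difference of changes, GREB1 -0.0275 and AGR2 -0.0222 at day 0 and TFF3 -0.015 in the mean change. The cause was not tested. Leaving out 1 array turned 34 differences, none of them called, over these ranges. For the change of the EglN2 shRNA line they were TFF3 -0.07 to 0.32, GREB1 -0.185 to 0.165, MYB -0.17 to 0.30, RET -0.445 to 0.035, SIAH2 -0.185 to 0.005 and NRIP1 -0.295 to 0.215. For the change of the Scr line they were GREB1 -0.19 to 0.03, MYB -0.065 to 0.585, CA12 -0.10 to 0.12, SIAH2 -0.285 to 0.015 and AGR2 -0.015 to 0.265. For the difference of changes they were TFF1 -0.025 to 0.275, GREB1 -0.105 to 0.245, MYB -0.52 to 0.13, RET -0.17 to 0.31 and SIAH2 -0.105 to 0.195. For the day 0 difference between the lines they were GREB1 -0.015 to 0.105, MYB -0.095 to 0.555, CA12 -0.05 to 0.22, RET -0.335 to 0.075, NRIP1 -0.045 to 0.465 and AGR2 -0.10 to 0.18. For the day 2 difference they were TFF1 -0.16 to 0.08, TFF3 -0.065 to 0.325, GREB1 -0.06 to 0.29, MYB -0.085 to 0.155 and RET -0.30 to 0.18. For the mean change of both lines they were TFF3 -0.09 to 0.105 and GREB1 -0.1325 to 0.0425. For the mean line difference they were TFF3 -0.085 to 0.11, GREB1 -0.0075 to 0.1675, MYB -0.03 to 0.295, RET -0.215 to 0.025 and NRIP1 -0.1625 to 0.0925.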

Other observations

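Values of 3 other receptor targets outside the naming rule, picked after their values were seen, are given as a description. MYC, the growth factor responsive transcription factor, read 10.15 and 9.69 in the Scr line at day 0, 9.48 and 9.22 there at day 2, 9.88 and 9.79 in the EglN2 shRNA line at day 0 and 9.54 and 9.07 there at day 2. As with TFF1, its 4 day 2 arrays were below its 4 day 0 arrays (2.11% of all probe sets). The mean change of MYC was -0.55 (SE 0.13, limma adjusted p = 0.195). IGF1R, the receptor of insulin-like growth factor, has 2 probe sets. The first (7986383) read 9.18 and 9.40 in the Scr line at day 0, 9.63 and 9.77 there at day 2, 9.25 and 9.53 in the EglN2 shRNA line at day 0 and 8.53 and 9.21 there at day 2. It was at -0.83 between the lines at day 2 (SE 0.20, adjusted p = 0.372), while the second (7986359) was at -0.36 (SE 0.13, adjusted p = 0.849). IRS1, an adaptor of that receptor, was at -0.47 between the lines at day 0 (SE 0.12, adjusted p = 0.455), with the Scr arrays at 7.36 and 7.52 and the EglN2 shRNA arrays at 6.86 and 7.08. None of these values passed the test.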
